A study of Mus musculus with 24 samples.

Results

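The SoxB genes Sox1, Sox2, Sox3 and Sox21 were followed across bulk RNA-seq libraries of dissected mouse archicortex (ARK), the medial strip of the embryonic forebrain from which the hippocampus and the cortical hem form. They were taken by name, as 4 of the 51912 genes in the deposited table, and all 4 were among the 16454 genes tested, for which 4 or more libraries had to reach 10 normalized counts. One of them is also a tool of the study: the Sox1Cre allele, used to delete Sox9, is a targeted mutation at the Sox1 locus itself. The 24 libraries, from embryos of a mixed C57BL/6J;MF1 background, formed 6 groups of 4. In the Sox1Cre line, Sox9fl/fl;Sox1Cre mutants and Sox9+/+;Sox1Cre controls were collected at E13.5 (mutants A1 to A4, controls A5 to A8) and at E12.5 (mutants A9 to A12, controls A13 to A16). In the NestinCre line, Sox9fl/fl;NestinCre mutants (A17 to A20) and Sox9+/+;NestinCre controls (A21 to A24) were collected at E13.5.

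Controls carried the same Cre as their mutants, so no library here is free of Cre. According to the paper, the Sox1Cre allele was carried in heterozygosity and acts throughout the neural plate. Nestin-Cre is a transgene that acts later and is mostly inactive in the cortical hem. Which bases of Sox1 the targeted mutation replaced is not given in the sources used here, and reads of Cre itself were not analysed here. The labels do not say whether libraries of a group came from separate litters, so p-values measure the spread between these libraries only. Line, cross and litter cannot be told apart. The depth of a library was between 16163560 and 49445219 reads on genes (median 23016925), and the deepest was the control A6. The level of Xist, the transcript of the inactive X chromosome, was above 1000 normalized counts in 11 of the 24 libraries, with 4 of 4 E12.5 Sox1Cre controls and 0 of 4 E13.5 Sox1Cre controls among them, so that age and sex cannot be told apart in the controls. The mutant A1 stood apart in its makeup, with the lowest summed marker levels of the 24 libraries for cortical hem, choroid plexus, meninges and endothelium.

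SoxB proteins are transcription factors that bind DNA through an HMG box, a domain shared with the sex-determining factor SRY. SOX1, SOX2 and SOX3 (the SoxB1 group) act mostly as activators and keep neural progenitors undifferentiated, with overlapping roles. SOX21 and SOX14 (the SoxB2 group) act mostly as repressors of the same kind of target and favour exit from the progenitor state. In the embryonic forebrain, the SoxB1 genes are hallmarks of the ventricular zone, and Sox9 itself is switched on in the same progenitors after them.

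The sequences below show how alike the members are where their proteins touch DNA, which bears on whether reads can be assigned to one of them. Each is the stretch of 237 bases (79 codons) that encodes the HMG box, read 5′ to 3′ on the coding strand from the GENCODE M21 transcript, with capitals at the bases that differ from Sox1. The build is GRCm38.
Sox1, chr8:12396505-12396741, plus strand: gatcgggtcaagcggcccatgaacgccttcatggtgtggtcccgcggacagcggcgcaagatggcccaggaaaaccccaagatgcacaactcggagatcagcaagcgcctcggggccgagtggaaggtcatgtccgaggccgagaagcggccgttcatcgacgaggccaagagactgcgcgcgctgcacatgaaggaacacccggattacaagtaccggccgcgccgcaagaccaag
Sox2, chr3:34650536-34650772, plus strand: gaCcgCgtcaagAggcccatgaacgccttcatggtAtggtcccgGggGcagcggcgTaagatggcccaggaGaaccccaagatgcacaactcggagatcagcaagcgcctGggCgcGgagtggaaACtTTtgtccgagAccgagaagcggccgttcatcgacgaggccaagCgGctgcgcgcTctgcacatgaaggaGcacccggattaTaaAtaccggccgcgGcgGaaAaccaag
Sox3, chrX:60892771-60893007, minus strand: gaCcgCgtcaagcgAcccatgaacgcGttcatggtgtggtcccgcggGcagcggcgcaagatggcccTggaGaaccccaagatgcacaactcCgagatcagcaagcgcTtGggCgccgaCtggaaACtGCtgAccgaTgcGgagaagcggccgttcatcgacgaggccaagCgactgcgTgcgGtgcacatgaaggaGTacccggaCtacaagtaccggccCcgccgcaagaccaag
Sox21, chr14:118235384-118235620, minus strand: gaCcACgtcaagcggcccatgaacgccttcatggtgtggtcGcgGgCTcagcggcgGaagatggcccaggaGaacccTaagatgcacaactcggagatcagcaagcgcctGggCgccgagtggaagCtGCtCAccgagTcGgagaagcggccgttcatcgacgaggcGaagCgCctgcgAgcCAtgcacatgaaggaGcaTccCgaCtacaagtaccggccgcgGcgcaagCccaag
Against Sox1, 25 of the 237 bases differed in Sox2, 26 in Sox3 and 31 in Sox21. The boxes of Sox1 and Sox2 were 89.5% identical. Over the whole transcripts, the longest run of identical bases shared by any pair was 45 bases (Sox1 with Sox3), and Sox1 with Sox2 shared at most 38.

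Each member is a single-exon gene. Sox1 (ENSMUSG00000096014) lies at chr8:12395295-12400126 on the plus strand, with an exon of 4832 bases. Sox2 (ENSMUSG00000074637) lies at chr3:34650405-34652461 on the plus strand, and its exon has 2057 bases. Sox3 (ENSMUSG00000045179) is X-linked, at chrX:60891366-60893430 on the minus strand, with 2065 bases. Sox21 (ENSMUSG00000061517) lies at chr14:118233232-118237030 on the minus strand, with 3799 bases. Of these bases of Sox21, 713 (18.8%) are also exonic in Gm4675, a long noncoding RNA on the other strand with a mean of 21.2 normalized counts, against 606.0 for Sox21. Whether the counting used strand is not given in the sources used here, so reads in that stretch cannot be told apart. Sox1 lies within an intron of the noncoding transcript Sox1ot, and Sox2 within one of Sox2ot, with 0 exonic bases in common in both cases. The exon of Sox1 also holds the miRNA gene Gm25239 on the same strand, which takes up 86 of its bases (1.78%) and is listed with a mean of 0 normalized counts.

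Sox9, the targeted gene, was lower in each mutant group than in its controls, without overlap between the 4 and 4 libraries. Its level was 3363 normalized counts in E13.5 Sox1Cre mutants against 5578 in controls, a log2 difference of -0.74 (limma, adjusted p = 0.0021). At E12.5 it was 2260 against 4522, a difference of -1.02 (limma, adjusted p = 6.28e-05). In the NestinCre line it was 3134 against 5152, a difference of -0.71 (limma, adjusted p = 0.0297). According to the paper, Cre removes only part of Sox9, and an exon outside that part is still expressed in mutants. These counts are of the whole gene, so they do not measure how fully Sox9 was deleted in either line. Between the lines, Sox9 did not pass the test (log2 difference 0.11, limma adjusted p = 0.598). The tissue label was checked on 12 markers of archicortex and dorsal telencephalon, which summed to group means between 54630 and 57970 normalized counts, with Lhx2 the most abundant. The 12 ventral telencephalon markers summed to group means between 954.6 and 1380, and 3 of them (Gsx2, Nkx2-1 and Lhx8) had a median of 0.

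Sox1 was the lowest of the SoxB1 genes in each of the 6 groups when levels were expressed per kilobase of exon. In E13.5 Sox1Cre controls it stood at 234.8 ± 33.83 normalized counts per kb (SD, n = 4), against 2193 ± 134.6 for Sox2 and 1890 ± 247.6 for Sox3. In E13.5 NestinCre controls it stood at 440.1 ± 64.01 per kb (SD, n = 4), with Sox2 at 2069 ± 168.1 and Sox3 at 1843 ± 137.5. Sox21 was at 151.2 ± 86.28 per kb and 176.4 ± 24.59 per kb in these groups (SD, n = 4), and its spread overlapped that of Sox1 in the Sox1Cre controls. Sox2 and Sox3 overlapped each other in both. The fifth SoxB gene, Sox14, had a mean of 2.5 normalized counts over the 24 libraries, below the filter, and was not tested.

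Sox1 was about halved in the Sox1Cre line. Among the controls at E13.5, its normalized counts were 1127, 1339, 1133 and 939 in Sox1Cre libraries and 2101, 1981, 2566 and 1859 in NestinCre libraries. All 4 Sox1Cre controls were below all 4 NestinCre controls. Among the mutants, its normalized counts were 2054, 1293, 1297 and 1381 in Sox1Cre libraries and 3126, 3278, 2920 and 2902 in NestinCre libraries. Again the groups did not overlap, although the mutant A1, at 2054, was above 2 of the NestinCre controls. Averaged over both genotypes, the mean was 1321 in Sox1Cre against 2592 in NestinCre libraries, a log2 difference of -0.98 with a standard error of 0.138 (limma, adjusted p = 0.000459), and -1.06 without A1. The former is a ratio of 0.508, with a 95% interval of 0.417 to 0.62.

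Taken by genotype, the log2 difference in Sox1 was -0.91 in controls (limma, adjusted p = 0.0529), a comparison in which 40 genes passed (0.243%; between 11, without A23, and 152, by DESeq2, under other settings). It was -1.05 in mutants (limma, adjusted p = 0.00897), where 176 genes passed (1.07%; 605 without A1, and between 52, with the libraries of the contrast only, and 1728, with array weights, under other settings). The exact permutation test, two-sided, gave p = 0.0286 for each, the smallest that 4 against 4 libraries allow. Controls alone therefore missed the threshold of 0.05 over all genes, with 6 of 12 alternative settings passing it, while the average over genotypes passed in 12 of 12 settings and in each of 16 fits that left out 1 library. In this comparison of lines 192 of 16454 genes passed (1.17%), 100 higher (0.608%) and 92 lower (0.559%) in the Sox1Cre line. Sox1 was 16 by p-value and 42 by size among the 92 lower genes. The effect of the line did not pass a test of difference between genotypes (log2 difference of differences -0.14, or -0.30 without A1, -0.06 without A6 and -0.26 with array weights; limma adjusted p = 0.981), in which 7 genes passed (0.0425%), but 144 without A1, 98 by DESeq2 and 369 with array weights.

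A ratio within a library does not depend on how libraries are scaled, and the same gap was seen in the level of Sox1 as a percentage of Sox2. It was 24, 28, 25.9 and 22.4% in Sox1Cre controls and 55.1, 43.3, 57.3 and 44.7% in NestinCre controls. In mutants it was 37.7, 29.6, 31.1 and 33.7% in the Sox1Cre line and 72.4, 68.9, 65.1 and 70.9% in the NestinCre line. No Sox1Cre library reached the lowest NestinCre library. The mean log2 ratio of Sox1 to Sox2 differed by -0.99 in controls and by -1.07 in mutants (exact permutation test, two-sided, p = 0.0286 each). Per kilobase, Sox1 made up 5.43 ± 0.497% of the SoxB1 sum in Sox1Cre controls and 10.09 ± 0.958% in NestinCre controls at E13.5 (SD, n = 4). The SoxB1 sum itself was 4318 ± 399 normalized counts per kb in the former and 4352 ± 284 in the latter (SD, n = 4).

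**Figure D1:**
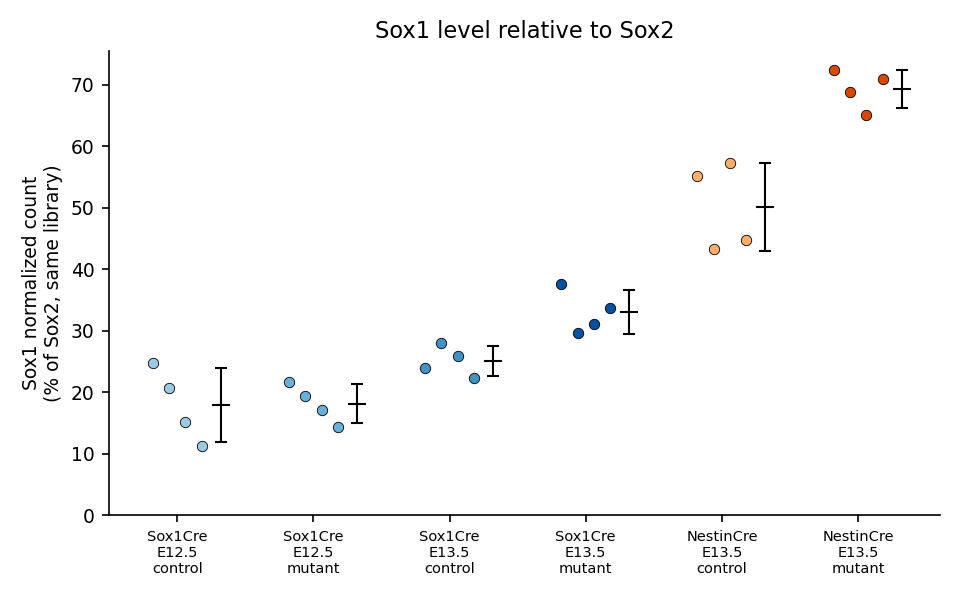
Sox1 normalized count as a percentage of the Sox2 normalized count of the same library (y axis, from 0) in the 6 groups (x axis), 1 point per library with the group mean ± SD (n = 4). The highest E13.5 Sox1Cre library was at 37.7% and the lowest NestinCre library at 43.3%.

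Around the locus, Sox1ot was the gene that came closest to the change in Sox1. Its normalized counts were 66.82, 81.95, 57.52 and 44.84 in E13.5 Sox1Cre controls and 78.52, 74.31, 121.8 and 92.73 in NestinCre controls. These groups overlapped. In mutants they were 152.4, 81.7, 75.55 and 62.65 against 113.1, 136.2, 157.6 and 170.7, and A1 again stood above the other Sox1Cre mutants. The log2 difference between lines was -0.62 with a standard error of 0.198, and did not pass (limma, adjusted p = 0.129). Of the 39 genes tested within 2 Mb of the Sox1 start, 0 passed in the comparison of lines by limma, edgeR or DESeq2, with 4 at an unadjusted p under 0.05 in limma, and their log2 differences ran from -0.62 to 0.37, with a median of 0.01. On the whole of chromosome 8, 26 of 844 genes tested passed (3.08%, against 1.17% of all genes), 16 higher and 10 lower, and the nearest of these to Sox1 had its start 9771 kb away. Whether this share differs from that of other chromosomes was not tested.

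**Figure D2:**
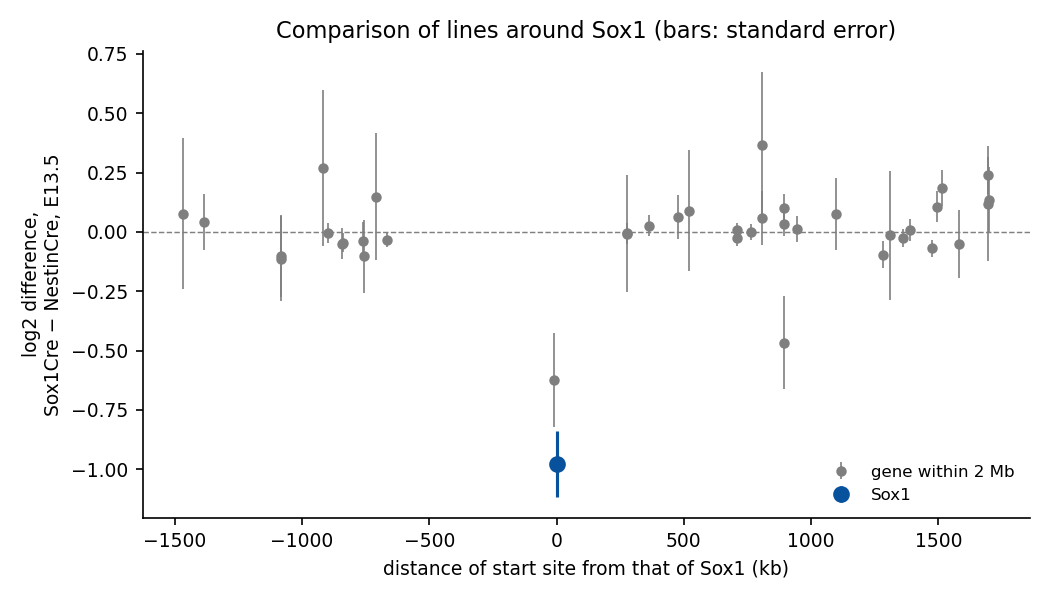
Log2 difference between Sox1Cre and NestinCre libraries at E13.5 (y axis, with its standard error) for Sox1 and the 39 genes tested within 2 Mb, by the distance of their start from that of Sox1 in kb (x axis). Sox1 is at -0.98 and Sox1ot, the point next to it, at -0.62.

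Sox2, the broadest marker of neural progenitors among the SoxB1 genes, did not follow the line. Its normalized counts were 4686, 4788, 4380 and 4186 in E13.5 Sox1Cre controls and 3811, 4574, 4480 and 4157 in NestinCre controls. In mutants they were 5453, 4364, 4173 and 4098 against 4318, 4757, 4485 and 4095. The groups overlapped within both genotypes, with A1 the highest library. The log2 difference was 0.06 with a 95% interval of -0.06 to 0.17 (limma, adjusted p = 0.678), that is, a ratio between 0.962 and 1.12. It was 0.01 without A1 and 0.078 without A4.

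Sox3, the X-linked SoxB1 gene, also overlapped between the lines. Its normalized counts were 4485, 4134, 3672 and 3320 in E13.5 Sox1Cre controls and 3901, 3739, 4127 and 3452 in NestinCre controls. In mutants they were 4539, 2996, 3474 and 3451 against 4269, 3334, 3710 and 3769. The log2 difference was -0.02, with an interval of -0.25 to 0.21 (limma, adjusted p = 0.953). In the line where Sox1 was lower, the intervals thus allowed a level of at most 1.12 times that of the other line for Sox2 and of 1.16 times for Sox3.

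Sox21, the repressor, had the widest spread of the members. In E13.5 Sox1Cre libraries its normalized counts were 381.6, 1042, 317.4 and 556.0 in controls and 1296, 421.4, 487.1 and 695.0 in mutants. In NestinCre libraries they were 692.3, 783.8, 560.0 and 644.9 in controls and 802.3, 1477, 850.1 and 554.4 in mutants. Single libraries, A6, A1 and A18, stood highest in 3 of these 4 groups. The log2 difference between lines was -0.38, with an interval from -1.12 to 0.35 (limma, adjusted p = 0.664), too wide to exclude a halving. It was -0.553 without A6 and -0.255 without A18. The standard deviation within groups was 0.762 on the log2 scale for Sox21, higher than in 98.5% of the 11830 genes with a mean of at least 100. It was 0.296 for Sox1, 0.24 for Sox3 and 0.111 for Sox2.

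Age was compared within the Sox1Cre line, in which E12.5 and E13.5 were both sampled. Of the genes tested, 5568 (33.8%) passed in this comparison, so that a pass by a single gene is common here. Sox1 was higher at E13.5. In controls at E12.5 its normalized counts were 1249, 1092, 735.6 and 556.5, and in mutants 1007, 986.2, 824.7 and 735.4. The E12.5 controls overlapped the E13.5 controls, whereas the E12.5 mutants were all below the E13.5 mutants. The log2 difference, E13.5 minus E12.5, was 0.56 with a standard error of 0.138 (limma, adjusted p = 0.00335), from a mean of 898.3 to one of 1321. Sox1ot rose as well, by 0.58 on the log2 scale (limma, adjusted p = 0.0269). In controls alone it went from a mean of 51.22 to one of 62.78 and did not pass by limma. In mutants alone it went from 49.73 to 93.08 and passed.

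Sox3 was also higher at E13.5. Its E12.5 normalized counts were 3911, 3316, 2586 and 2587 in controls and 3136, 2383, 2953 and 1814 in mutants. The ages overlapped in both genotypes. The log2 difference was 0.43 with a standard error of 0.112 (limma, adjusted p = 0.00559), and it was 0.39 with the log2 level of Xist as a covariate (limma, adjusted p = 0.0292). In the mutants, in which each age had 2 libraries with Xist above 1000, it was 0.51 (limma, adjusted p = 0.0225), and 0.39 without A1, which did not pass. In controls alone the age difference of Sox3 was 0.34 and that of Sox1 0.38 (limma, adjusted p = 0.165 and 0.216), with Sox1 at 0.17 without A16 and at 0.56 without A13, and 0 of the 4 SoxB genes passed there by limma, edgeR or DESeq2, where 11.5% of all genes did by limma, with 2 of the 4 at an unadjusted p under 0.05 in limma. In mutants alone, where 25.9% of all genes passed, Sox1 differed by 0.74 (limma, adjusted p = 0.00803).

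Sox21 and Sox2 lay at the threshold. Sox21 had E12.5 normalized counts of 275.8, 874.5, 137.8 and 132.0 in controls and 311.3, 215.4, 429.5 and 605.4 in mutants. Its log2 difference between ages was 0.92 with a standard error of 0.353 (limma, adjusted p = 0.0483), and the call was lost in 8 of 12 alternative settings and in 10 of 16 fits without 1 library. Sox2 had E12.5 normalized counts of 5041, 5275, 4856 and 4942 in controls and 4643, 5086, 4807 and 5130 in mutants. It fell by 0.14 on the log2 scale from E12.5 to E13.5 (limma, adjusted p = 0.0432), a call lost in 4 of 12 settings and in 11 of 16 fits without 1 library. Sox2ot, whose introns hold Sox2, fell by 0.57 (limma, adjusted p = 0.00203), from a mean of 558.9 to one of 370.1. In controls alone it went from 467.8 to 341.5 and did not pass by limma, and in mutants alone from 650.0 to 398.8 and passed.

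The log2 ratio of Sox1 to Sox2 was -2.54 ± 0.501 in E12.5 controls and -2.0 ± 0.137 in E13.5 controls (SD, n = 4), a difference of 0.54 (exact permutation test, two-sided, p = 0.0857), or 0.34 without A16 and 0.71 without A13. In mutants it was -2.48 ± 0.255 at E12.5 and -1.60 ± 0.151 at E13.5 (SD, n = 4), a difference of 0.87 (exact permutation test, two-sided, p = 0.0286). As a percentage of Sox2, Sox1 was lowest in the E12.5 control A16, at 11.3%.

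**Figure D3:**
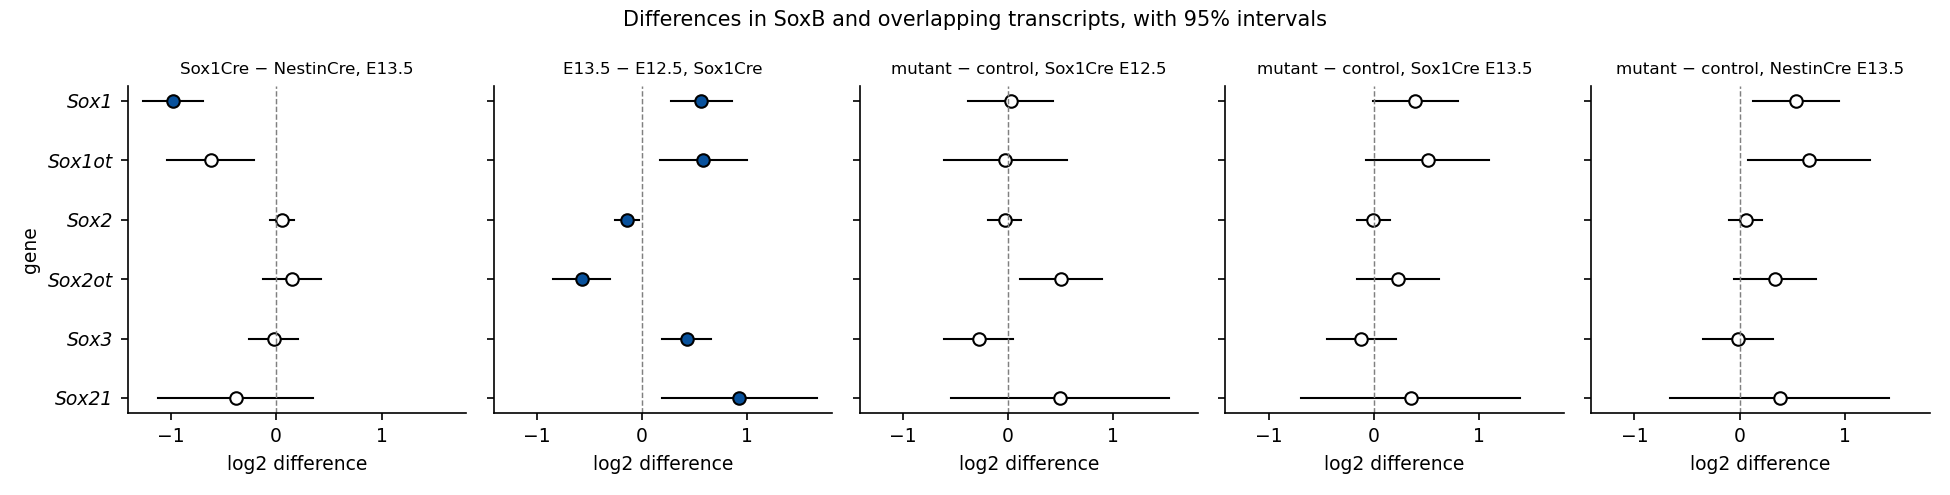
Log2 difference (x axis) with its 95% interval for the SoxB genes and the overlapping transcripts Sox1ot and Sox2ot (y axis) in 5 comparisons, with filled points for an adjusted p under 0.05 in limma. Sox1 is the filled point in the comparison of lines, all 6 genes are filled in the comparison of ages, and 0 of 6 are filled in the comparisons of mutants with controls.

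Between Sox9 mutants and their controls, 0 of the 4 SoxB genes passed in any of the 3 comparisons by limma, edgeR or DESeq2, and 1 had an unadjusted p under 0.05 in limma. Over all genes, 152 passed in the Sox1Cre line at E13.5 (0.924%), 119 at E12.5 (0.723%) and 11 in the NestinCre line (0.0669%). Sox1 in the NestinCre line was the member with the lowest p. All 4 of its mutants, between 2902 and 3278, were above all 4 controls, between 1859 and 2566. The log2 difference was 0.53 with a standard error of 0.195 (limma, unadjusted p = 0.0125, adjusted p = 0.586; exact permutation test, two-sided, p = 0.0286). In the Sox1Cre line at E13.5 it was 0.39 (limma, adjusted p = 0.448), and without A1 it was 0.23. At E12.5 it was 0.03 (limma, adjusted p = 0.969), with overlapping groups.

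Relative to Sox2, Sox1 was higher in the E13.5 mutants of both lines. The log2 ratio differed from that of the controls by 0.40 in the Sox1Cre line and by 0.48 in the NestinCre line, with no overlap in either (exact permutation test, two-sided, p = 0.0286 each). At E12.5 the difference was 0.06 (exact permutation test, two-sided, p = 0.886). The difference between ages in the mutant change of Sox1 was 0.36 with a standard error of 0.276 (limma, adjusted p = 0.81), or 0.19 without A13, 0.58 without A16 and 0.13 with array weights, so the ages were not shown to differ. In that test 0 genes passed by limma (0%) or edgeR, 20 by DESeq2 and 1217 at an unadjusted p under 0.05 in limma. For Sox2, the log2 differences between mutants and controls were -0.004, -0.03 and 0.05 in E13.5 Sox1Cre, E12.5 Sox1Cre and NestinCre libraries, with intervals reaching no further than -0.19 and 0.21. For Sox3 they were -0.12 (-0.23 without A1 and -0.03 without A2), -0.28 (-0.12 without A12) and -0.02, and for Sox21 0.35 (0.02 without A1 and 0.69 without A6), 0.50 (0.17 without A16 and 1.08 without A14) and 0.38 (0.12 without A18 and 0.59 without A20), and mutants and controls overlapped in each case.

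The other Sox genes give the setting in which the SoxB genes moved. Of 15 listed, 12 were tested, and in the comparison of lines 0 of 12 passed by limma, where 1.17% of all genes did, or by edgeR, and 1, Sox11, by DESeq2, with 3 at an unadjusted p under 0.05 in limma and a median log2 difference of -0.06. With age, averaged over both genotypes, 4 of 12 rose, Sox8, Sox4, Sox5 and Sox9, and 1, the endothelial factor Sox18, fell, where 17.4% of all genes rose and 16.5% fell. DESeq2 also called Sox6. In controls alone 3 rose by limma, Sox8, Sox4 and Sox5, and 0 fell, where 11.5% of all genes passed. Sox9, which is deleted in the mutants, passed with age in mutants alone but not in controls alone. Averaged over both genotypes, Sox8, the closest relative of Sox9 beside Sox10, rose by 2.85 on the log2 scale from 9.136 to 92.05 normalized counts (limma, adjusted p = 7.55e-06). Its mean went from 8.725 to 46.82 in controls and from 9.547 to 137.3 in mutants, with the E12.5 levels below the 10 counts of the filter. At E13.5 mutants and controls of this line overlapped, and Sox8 did not pass between them. Sox4, a SoxC gene of young neurons, rose by 0.75 on the log2 scale from 7245 to 12380 normalized counts (limma, adjusted p = 2.22e-05). In mutants, besides Sox9, Sox6 fell by 0.46 in the Sox1Cre line at E13.5 and by 0.54 at E12.5 (limma, adjusted p = 0.0138 and 0.00392). The most abundant gene of the list was Sox11, at 23360 and 20150 normalized counts in E13.5 Sox1Cre and NestinCre libraries, and its log2 difference of 0.21 did not pass (limma, adjusted p = 0.119).

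Known partners and targets of SoxB proteins were described from a list of 20 genes, all tested. Between lines 0 of 20 passed by limma, edgeR or DESeq2, where 1.17% of all genes did by limma, and 2 had an unadjusted p under 0.05 in limma, with a median log2 difference of -0.04. Nestin (Nes), an intermediate filament gene whose neural enhancer is bound by SoxB1 and POU proteins, was the most abundant, at 16260 normalized counts in Sox1Cre and 16560 in NestinCre libraries at E13.5. With age, averaged over both genotypes, 5 rose and 9 fell, against 17.4% and 16.5% of all genes. In controls alone 0 rose and 3 fell by limma (Lin28b, Gli3 and Gli2), where 11.5% of all genes passed. In mutants alone 5 rose and 7 fell, where 25.9% of all genes passed. In the average over genotypes, the POU factor Pou3f3 rose by 0.46 and Pax6, a regulator of dorsal progenitors, by 0.40 on the log2 scale (limma, adjusted p = 0.00106 and 0.000205). Nr2e1, the orphan receptor Tlx of neural stem cells, rose by 0.41, Nes by 0.30 and the Notch effector Hes1 by 0.22 (limma, adjusted p = 0.0101, 0.00421 and 0.0112).

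Among those that fell with age, Lin28b, an RNA-binding protein of early progenitors, fell by 1.76 on the log2 scale from 164.4 to 48.99 normalized counts (limma, adjusted p = 3.94e-06). Pou3f1 fell by 1.30, Six3 by 1.21, Ccnd1 (cyclin D1) by 0.91 and Egfr by 0.75 (limma, adjusted p = 0.0036, 0.002, 0.0012 and 0.00401). In mutants of the Sox1Cre line, where 0.924% of all genes passed at E13.5 and 0.723% at E12.5, 1 of 20 passed, Notch1, which fell by 0.82 at E13.5 and by 0.45 at E12.5 (limma, adjusted p = 0.0002 and 0.0417). In the NestinCre line, where 0.0669% of all genes passed, its log2 difference was -0.44 and was called by DESeq2 but not by limma (adjusted p = 0.252) or edgeR.

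The genes whose levels were most like those of each member were sought by Pearson correlation of log2 levels over the 24 libraries, among 11829 genes with a mean of at least 100. These are descriptions: the libraries share ages, lines and the makeup of the dissection. For Sox1 they were Nr2e1 (r = 0.865), Tcf7l1, a transcriptional effector of Wnt signalling (0.864), and Vxn (0.853). After group means were removed, Nr2e1 kept r = 0.83 and Vxn had 0.219. For Sox3 they were Id4, an inhibitor of bHLH factors (0.943), Lhx2, the selector of cortical identity (0.94), and Sall1 (0.914). For Sox2 they were Pms2 (0.878), Tgfbr1 (0.873) and Crk (0.851), and for Sox21 Fam124a (0.868), Pantr1 (0.838) and Khdrbs3 (0.824). Between members, r was 0.642 for Sox1 with Sox3 and -0.381 for Sox1 with Sox2, and within groups these became 0.739 and 0.491.

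The levels of Sox1, Sox3 and Sox21 were lower in libraries with more reads of cortical hem markers. The 11 cortical hem markers (Rspo2 the most abundant, none with a median of 0) summed to 13720 in A1, the lowest library, and to 54900 normalized counts in A12, the highest. Over the 24 libraries, the log2 of this sum had r = -0.867 with Sox3, -0.793 with Sox1 and -0.686 with Sox21, but 0.401 with Sox2. Within groups r was -0.769, -0.783, -0.473 and -0.311. With age, 9 of the 11 hem markers fell and 0 rose (limma), where 16.5% of all genes fell. Bmp4 and Rspo2, signals of the hem, fell by 1.26 and 1.22 on the log2 scale, and Wnt3a, which is required for the hippocampus to form, by 1.02 (limma, adjusted p = 0.000121, 6.05e-05 and 7.05e-05). Of 12 neuron markers 10 rose, where 17.4% of all genes did, led by Neurod6 with a log2 difference of 3.29 (limma, adjusted p = 5.06e-06). The hem sum was 23760 ± 4556 in E13.5 and 37590 ± 8505 in E12.5 Sox1Cre controls (SD, n = 4). Its part in the age differences of Sox1, Sox3 and Sox21 was not tested. In bulk samples, fewer cells of a type and less RNA per cell cannot be told apart.

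**Figure D4:**
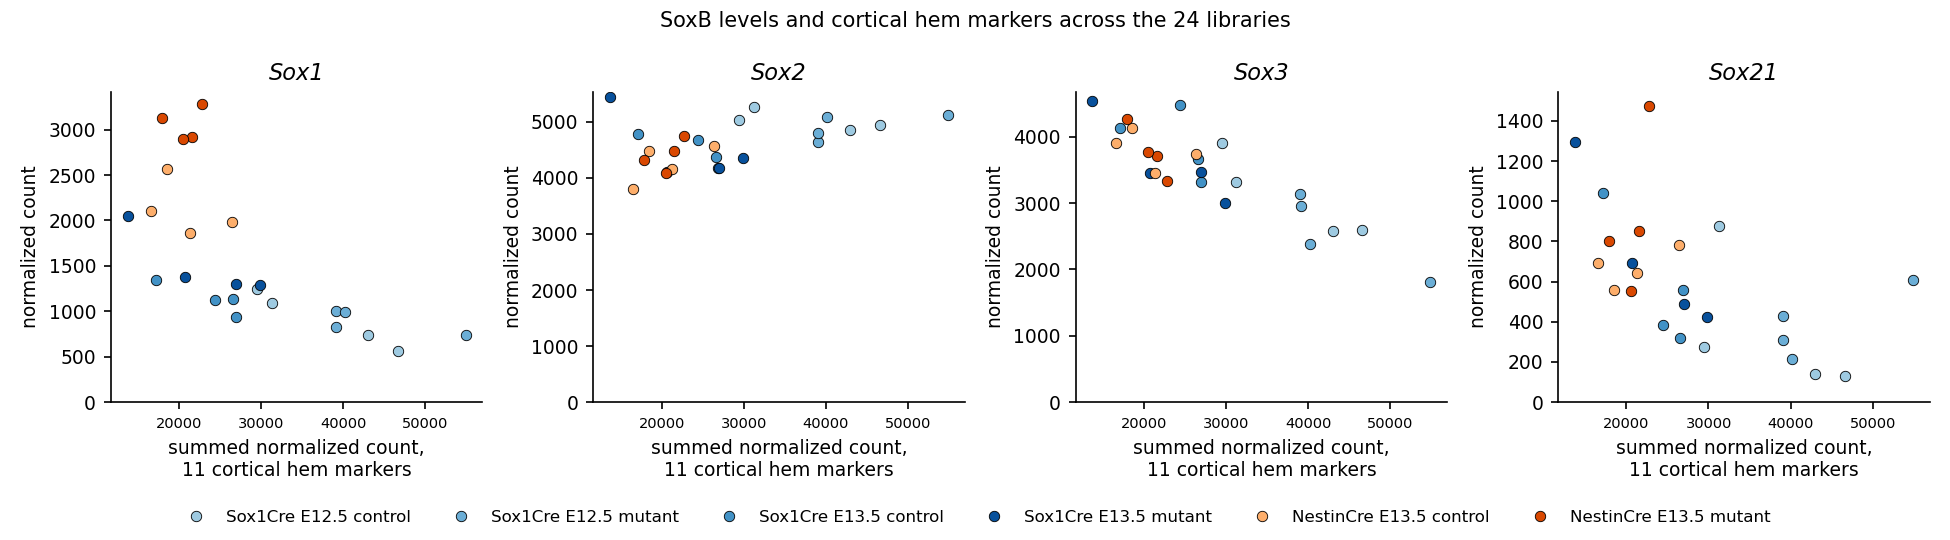
Normalized counts of the 4 members (y axes, from 0) against the summed normalized count of 11 cortical hem markers (x axes) in the 24 libraries, coloured by group. Sox1, Sox3 and Sox21 were lower in libraries with more hem marker reads, and at like hem sums the NestinCre libraries lay above the E13.5 Sox1Cre libraries for Sox1.

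Between the lines, 0 of the 11 hem markers passed by limma, where 1.17% of all genes did, or by edgeR, and 1, Wnt5a, by DESeq2, with 2 at an unadjusted p under 0.05 in limma. Their sum was 23760 ± 4556 in E13.5 Sox1Cre and 20690 ± 4272 in NestinCre controls (SD, n = 4). By limma and edgeR, 0 markers of the other 10 cell types and tissues passed between lines either (archicortex, progenitors, neurons, Cajal-Retzius cells, ventral telencephalon, diencephalon, choroid plexus, meninges, endothelium and erythroid cells), and DESeq2 called Msi2 among progenitor and Map2 among neuron markers. The most unadjusted p values under 0.05 in limma were 4, among the 18 progenitor markers. At a share of 1.17% of all genes, lists of this length can be without a call whether or not the makeup of the samples differed.

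With age, 17.4% of all genes rose and 16.5% fell by limma, the shares beside which the marker counts below stand. Whether the makeup of the samples changed with age was not tested. Of 12 archicortex markers 4 rose and 5 fell, and Lhx2 was among those that rose. Of 18 progenitor markers 5 rose and 5 fell, and of 8 Cajal-Retzius cell markers 2 rose and 4 fell. Of the diencephalon markers 6 were tested, of which 1 rose and 2 fell, and of the choroid plexus markers 8, of which 3 rose. Of 9 meninges markers 2 rose and 5 fell, of 8 erythroid markers 1 rose and 5 fell, and 0 of 7 endothelium markers passed by limma, edgeR or DESeq2, with 1 at an unadjusted p under 0.05 in limma.

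Markers of the choroid plexus, a secretory epithelium next to the hem, moved opposite to Sox2: the sum of these 9 markers, of which Ttr was the most abundant, had r = -0.862 with Sox2 over the 24 libraries and -0.89 within groups. A1, the highest library for Sox2, had the lowest sum, 8168, against 66870 to 89760 normalized counts in the other E13.5 Sox1Cre mutants. A1 also had the lowest sum of endothelium markers, 4583. A18, the highest library for Sox21, had the highest sum of ventral telencephalon markers, 2222, against 1032 to 1175 in the other NestinCre mutants. Whether these differences in makeup set the levels of Sox2 and Sox21 there was not tested.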

How the data were processed

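The authors trimmed reads with Trimmomatic 0.36, aligned them to Ensembl GRCm38 release 89 with STAR 2.5.2a, estimated gene counts with RSEM 1.2.31 and deposited 1 table of counts divided by a DESeq2 size factor per library, a normalized signal that is called normalized count here. Whole reads could be recovered from the steps of the values in 100% of values per library, to within 0.1 reads, and give the depth; on these reads edgeR called 185 and DESeq2 488 genes between lines. Gene names and positions came from GENCODE M21.

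Values were tested as log2(value + 1) with limma 3.58.1 (1 mean per group, 24 libraries, trended eBayes, Benjamini-Hochberg over 16454 genes, threshold 0.05), so that folds of low genes are understated. Differences within 1 genotype or age were also tested by exact permutation (scipy 1.17.1). edgeR 4.0.16 and DESeq2 1.42.0 on recovered reads, other scalings, filters and pseudocounts, a covariate for Xist and the omission of each library were alternatives. Scripts were tested on simulated data. Members, lists and markers were chosen with earlier results of these data known. Named genes are the 4 members, Sox14, transcripts that overlap members, Sox9, up to 5 genes per list that passed in a contrast, by size, with the most abundant gene of the list, the 3 genes most correlated with each member, and genes within 2 Mb of a member that passed between lines (0 did). The 5 SoxB partners that rose with age and the genes called by DESeq2 alone were named after their values were seen. Among the hem markers, Wnt3a was named although Rspo1 fell by more with age. The change of ventral telencephalon markers with age is not reported here.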

Additional observations from a re-analysis of the deposited data

Results flagged for a closer look

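Sox1 in the E13.5 Sox1Cre mutant A1 was at 2054 normalized counts, while the other 3 mutants of the group were at 1293, 1297 and 1381. The gap to its nearest neighbour took up more of the range of the group than Dixon's 95% limit for 4 samples allows. This was the 1 library set apart among 24 checks, 4 genes in 6 groups, and chance sets apart about 1 in 20. Sox2, Sox3, Sox21 and Sox1ot also had their highest value of the group in A1, and its sum of choroid plexus markers was 8168 normalized counts. Without A1, the log2 difference of Sox1 between the lines was -1.06, against -0.98 with it, and the mutant change in the Sox1Cre line was 0.23, against 0.39.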

How the results depend on the processing

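The Sox1 difference between lines ran from -1.05 to -0.96 over 12 settings and from -1.06 to -0.93 with each library left out, and passed in all of these fits, as did the age differences of Sox1 and Sox3. In controls alone Sox1 passed with quantile normalization, total-read scaling, array weights, the libraries of the contrast only, edgeR and DESeq2, and in 0 of 8 fits without 1 library. The Sox2 age difference was lost with no filter or with the libraries of the contrast only (-0.144 each), the Xist covariate (-0.146) and edgeR (-0.137), and in 11 of 16 fits without 1 library, passing without A1, A5, A6, A9 or A15 (all 16 fits ran from -0.19 to -0.122). That of Sox21 was lost with no filter, robust eBayes or the libraries of the contrast only (0.923 each), quantile normalization (0.871), array weights (0.793), the Xist covariate (0.705), edgeR (0.813) and DESeq2 (0.795), and in 10 of 16 fits without 1 library, passing without A2, A3, A5, A7, A12 or A14 (all 16 fits ran from 0.753 to 1.216). The Sox3 age difference in mutants alone was lost without A1, A10 or A12 (0.392, 0.48 and 0.349), with array weights (0.341) and with the libraries of the contrast only (0.506). That of Sox2 in mutants (-0.129) passed without A1 (-0.223) and with array weights (-0.189), and that of Sox21 in controls (0.996) without A14 (1.582).

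The other changes of sign were of differences that no fit called. With array weights the Sox3 line difference in controls was -0.007, that of Sox2 in mutants -0.035, the E13.5 Sox1Cre mutant difference of Sox21 -0.004 and the difference of Sox2 between ages in mutant change -0.023. The E13.5 Sox1Cre mutant difference of Sox2 was 0.037 with quantile normalization, 0.023 by total reads, 0.0 by edgeR and 0.004 by DESeq2, and its E12.5 one 0.008 with quantile normalization. The E12.5 mutant difference of Sox1 was -0.024 by edgeR and -0.027 by DESeq2, and the NestinCre one of Sox3 0.003 with the Xist covariate. For Sox21 the mutant change differed between lines by 0.015 by total reads and 0.082 with the Xist covariate, and between ages by 0.299 with that covariate, 0.186 by edgeR and 0.197 by DESeq2. With 1 library left out, Sox3 between lines ran from -0.078 to 0.022, in controls from -0.04 to 0.105 and in mutants from -0.187 to 0.013, and Sox2 between mutants of the lines from -0.066 to 0.071. The mutant differences ran from -0.097 to 0.04 for Sox2 at E13.5, -0.184 to 0.204 for Sox1 at E12.5 and -0.077 to 0.042 for Sox3 in the NestinCre line. The differences in mutant change ran from -0.356 to 0.31 between lines for Sox21, and between ages from -0.064 to 0.073 for Sox2 and -0.733 to 0.193 for Sox21. The cause was not tested.

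The log2 ratio of Sox1 to Sox2, without 1 library, ran from -1.058 to -0.924 between lines in controls, -1.139 to -1.024 in mutants, 0.767 to 0.966 between ages in mutants and 0.335 to 0.714 in controls, and 0.33 to 0.45 (Sox1Cre E13.5), -0.143 to 0.235 (E12.5) and 0.411 to 0.546 (NestinCre) between genotypes; 3 against 4 libraries cannot go below p = 0.0571 in an exact permutation test.

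The number of genes called between lines was 192, and 869 with array weights, 488 by DESeq2 and 113 with the libraries of the contrast only. Without 1 library it was 517 (A5), 386 (A1), 126 (A18), 122 (A17), 110 (A8) or 108 (A22), and otherwise within 1.5 times. Between E13.5 Sox1Cre genotypes it was 152, and 962, 358 and 44 in those settings, and 510, 90, 101 or 95 without A1, A3, A4 or A6. At E12.5 it was 119, and 577, 298 and 76, and 75, 50, 68 or 74 without A12, A13, A14 or A16. Between lines in mutants it was 176, and 1728, 354 and 52, and 605, 99, 76, 86, 83, 71 or 97 without A1, A2, A3, A4, A17, A18 or A20. In controls it was 40, and 108 with array weights, 152 by DESeq2 and 22 with a mean of at least 100, and 12, 18, 20, 17, 17 or 11 without A6, A7, A8, A21, A22 or A23. For the difference between lines in mutant change it was 7, and 369 with array weights, 98 by DESeq2, 13 with the libraries of the contrast only, 144 without A1 and 13 without A17. In the NestinCre line it was 11, and between 2 (Xist covariate) and 37 (DESeq2) over the settings and between 2 and 7 without 1 library. Between ages it stayed between 4094 and 6739 over the settings, while for controls alone it was 1892, and 0 with the Xist covariate, the sexes being separate there, 3244 with array weights, and 794, 872, 1153, 1200 or 1158 without A6, A8, A14, A15 or A16. For mutants alone it was 4263, and 2133 with the libraries of the contrast only. No paired analysis was possible because the libraries carry unique numbers that groups do not share.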
